A study of Prunus persica with 16 samples.

Results

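In peach buds, 88 genes were lower after hydrogen cyanamide (HC) than in untreated buds at 3 days and higher at 7 days. They were picked from a matrix of 26873 gene identifiers by their measured values. A member had a mean of 20 FPKM or more (fragments per kilobase of gene, scaled to library size) over all 16 libraries. Per group, the median of log2(FPKM + 1) was taken. The difference E3 (HC minus control at 3 days) had to be -1 or lower and E7 (HC minus control at 7 days) had to be 1 or higher. A set of 7 consecutive identifiers, Prupe.1G531100 to Prupe.1G531700, was left out by the rule. Of the 5729 genes with enough signal that remained, 433 met the 3-day condition, 510 met the 7-day condition and 88 met both (1.54%), while 37 genes had the mirrored course. Since E3 and E7 chose the members, both are given here as a description with no test.

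The samples were buds of 5-year-old trees of the low-chill cultivar TropicBeauty on Floridaguard rootstock, which had met 11 of 150 required chilling hours. A set of 4 trees was sprayed with HC at 1% (v/v) to which a non-ionic surfactant had been added at 0.15% (v/v), and another 4 trees were left without HC. Surfactant is mentioned for the sprayed trees alone, so HC and surfactant cannot be told apart. Buds were taken 3 and 7 days after the spray, which gave 4 groups of 4 libraries: control at 3 days, HC at 3 days, control at 7 days and HC at 7 days. Since there were 4 trees per treatment, each tree would have given buds on both days. The labels name whole buds, so fewer cells of a kind and less RNA per cell cannot be told apart in any value below.

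Winter buds of peach stay closed until they have met enough chilling, a state called dormancy. HC is a growth regulator that growers spray on dormant fruit trees to bring bud break forward where winters are warm. In fruit trees its action is usually described through a short-lived disturbance of respiration and of the balance of oxidants, after which growth resumes. The files pair no gene name or product with the identifiers, so members are described by level and course and no function is given.

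Estimated depth, in M (1000000 reads), had a median of 4.73 M over the libraries; it was lowest at 0.555 M (7-day control replicate 1) and highest at 21.9 M (3-day HC replicate 3). Between 8667 (3-day control replicate 2) and 18378 genes (7-day HC replicate 1) were above 0. Control replicate 1 at 7 days listed 37 of the 88 members at 0 (42.0%), against 9.91% of all genes with enough signal. Control replicate 2 at 3 days listed 16 members at 0 (18.2%), against 16.0%. These are the 2 libraries with the fewest genes above 0, and the medians, courses and spreads below are also given without 1 or both of them.

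Together the members held between 0.695% and 1.02% of a library's summed FPKM in control buds at 3 days, and between 0.164% and 0.252% in HC buds of that day. At 7 days they held between 0.252% and 0.664% in control buds and between 1.03% and 1.55% in HC buds. The median FPKM over members was between 39.3 and 75.1 in the control libraries and between 9.58 and 15.5 in the HC libraries at 3 days. At 7 days it was between 9.06 and 30.5 in control and between 57.9 and 79.5 in HC libraries. No HC library overlapped a control library of its day in these sums or medians, as the choice of members favours. Control replicate 2 stood high at both days: it was the highest control library for 56.8% of members at 3 days (36.0% of all genes with enough signal) and for 54.5% at 7 days (23.2%).

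**Figure D1:**
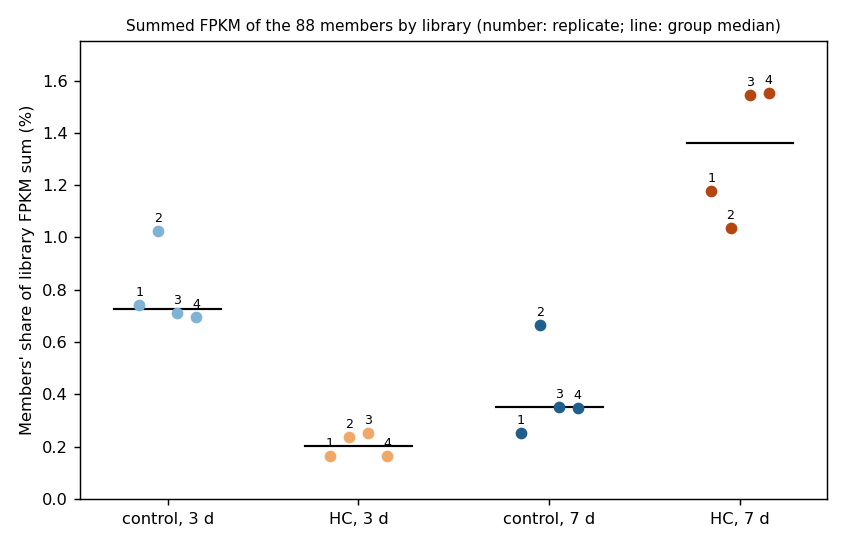
Share of each library's summed FPKM held by the 88 members, in percent, by group; points are libraries numbered by replicate and lines are group medians. HC libraries sit between 0.164% and 0.252% at 3 days and between 1.03% and 1.55% at 7 days, below and then above the control libraries.

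The median E3 over members was -1.85 (quartiles -2.55 and -1.42, lowest -6.76) and the median E7 was 1.80 (quartiles 1.38 and 2.81, highest 6.57). Over the 5729 genes with enough signal these medians were 0.01 and 0.10. A difference of 1 on this scale is close to a doubling for abundant genes and understates that of low genes. The 3-day difference was the larger one in size in 42 members. In 22 members E3 was -2 or lower and E7 was 2 or higher. Without control replicate 1 at 7 days the median E7 of the same 88 genes was 1.47 and 83 of them kept an E7 above 0. Without control replicate 2 at 7 days it was 2.17.

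**Figure D2:**
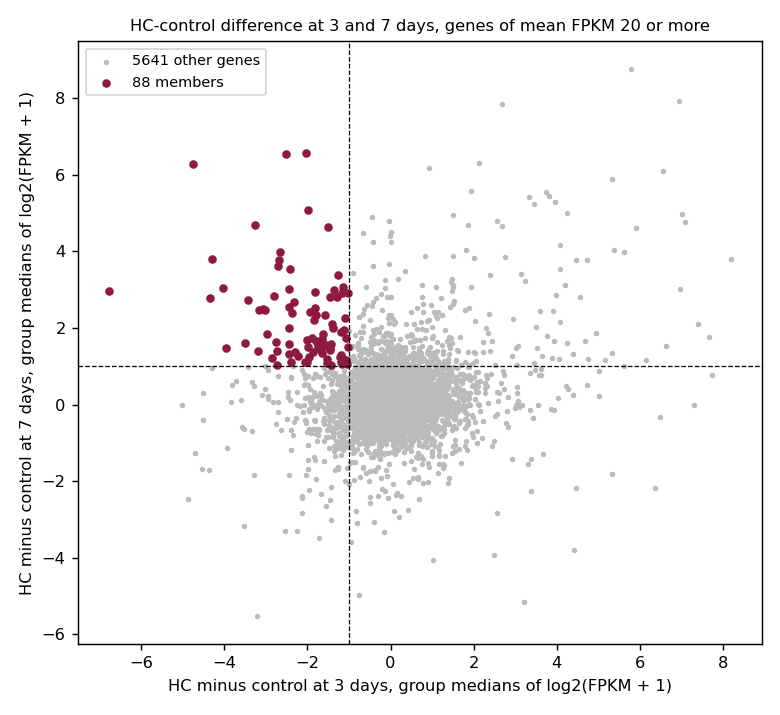
E3 (horizontal) against E7 (vertical), both HC minus control in group medians of log2(FPKM + 1), for genes with a mean of 20 FPKM or more; dashed lines are the limits at -1 and 1. The 88 members fill the upper left corner by their choice, with medians of -1.85 and 1.80.

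Just inside the 3-day limit were Prupe.6G147400 (E3 -1.03, E7 2.91) and Prupe.5G088100 (-1.03 and 1.5), and just outside were Prupe.6G080600 (-0.99 and 1.93) and Prupe.7G008000 (-0.95 and 1.47). Just inside the 7-day limit were Prupe.6G162000 (E3 -1.44, E7 1.02) and Prupe.3G134900 (-2.74 and 1.03), and just outside were Prupe.5G185600 (-2.34 and 0.997) and Prupe.3G306600 (-3.01 and 0.996). The 4 genes outside thus had nearly the same differences as those inside.

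In 41 members the 4 HC libraries were all lower than the 4 controls at 3 days, in 35 they were all higher at 7 days, and in 19 both held. Over all genes with enough signal, libraries did not overlap in these directions for 6.82%, 5.93% and 0.611%. In 31 members the libraries overlapped at both days. The rule used these contrasts, so nothing is read from the counts. The limma fit over 16596 genes called 20 members lower in HC at 3 days (0.735% of all tested genes were), 9 higher at 7 days (0.325%) and 27 with a higher HC effect at 7 than at 3 days (0.356%). The rule bears on these counts too, and no call of a single member is reported from them. The authors' deposited tables gave 87 members a log2 fold change below 0 at 3 days and 82 a log2 fold change above 0 at 7 days. With an adjusted p under 0.05 in the authors' deposited tables, 55 were lower at 3 days (4.53% of all listed genes were), 35 higher at 7 days (4.73%) and 27 both (0.465%). The remaining member, Prupe.I004100, was in neither deposited table. The deposited tables compare HC with control at the same days as the rule, so nothing is read from their counts either.

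The 19 members whose libraries did not overlap at either day had E3 between -4.34 and -1.09 and E7 between 1.12 and 4.00, with a median of the mean FPKM of 113. They are named here after their values were seen: Prupe.6G021100, Prupe.6G021700, Prupe.2G232200, Prupe.8G250000, Prupe.3G269300, Prupe.5G164100, Prupe.1G265600, Prupe.1G276700, Prupe.1G258100, Prupe.5G118000, Prupe.1G350700, Prupe.1G380600, Prupe.5G115800, Prupe.1G499800, Prupe.6G120300, Prupe.6G292500, Prupe.6G081300, Prupe.3G049900 and Prupe.6G256500. Of these, 13 were above 0 in all 16 libraries and 15 stayed members whichever single library was left out.

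Prupe.2G232200 was the most abundant member, with a mean of 599 FPKM. At 3 days it had 807, 809, 678 and 751 FPKM in control replicates 1 to 4 and 36.8, 172, 107 and 47.6 FPKM in HC replicates. At 7 days it had 172, 644, 157 and 204 FPKM in control and 995, 1169.9, 1497 and 1329 FPKM in HC libraries. The groups were apart at both days (E3 -3.43, E7 2.73), although control replicate 2 at 7 days lay near the control levels of 3 days. It held between 31.9 and 5581 estimated reads per library.

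The same control library stood out in Prupe.6G021100 and Prupe.6G021700, which lie 6 places apart in the identifier order. Prupe.6G021100 (E3 -4.28, E7 3.79) had 306 FPKM in control replicate 2 at 7 days and 0, 25.4 and 43.5 FPKM in the other controls of that day. Prupe.6G021700 (E3 -4.34, E7 2.79) had 254 FPKM in it against 5.94, 47.3 and 116 FPKM. In both genes that library was the only 7-day control that did not lie below all 3-day controls.

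Prupe.6G081300 had 247, 668, 277 and 375 FPKM in control and 56.1, 170.4, 127 and 182 FPKM in HC libraries at 3 days. Its 7-day levels were 197, 588, 168 and 305 FPKM in control and 831, 856, 1201 and 1065 FPKM in HC libraries. Its control levels of both days overlapped, and the HC libraries lay below the controls of their own day at 3 days and above them at 7 days (E3 -1.13, E7 1.96).

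Prupe.1G258100 had 73.1, 489.7, 124 and 208 FPKM in control and 8.06, 14.8, 26.3 and 35.9 FPKM in HC libraries at 3 days. By 7 days the levels were 265, 436, 202 and 193 FPKM in control and 643, 454, 1096 and 1357 FPKM in HC libraries. The groups did not overlap at either day, with the narrowest gap between control replicate 2 and HC replicate 2 at 7 days (E3 -2.96, E7 1.85).

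Prupe.6G120300 had control levels of 293, 181, 234 and 373 FPKM at 3 days and 215, 323, 354 and 212 FPKM at 7 days. Its HC levels were 17.4, 62.6, 53.4 and 41.6 FPKM and then 598, 452, 732 and 907 FPKM. The controls of both days overlapped while both HC groups lay outside it (E3 -2.45, E7 1.32).

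Prupe.1G183100 had 282, 511, 164 and 301 FPKM in control and 76.9, 96.1, 119 and 118 FPKM in HC libraries at 3 days. The 7-day values were 159.5, 322, 216 and 549 FPKM in control and 771, 353, 712 and 796 FPKM in HC libraries. Here the groups were apart at 3 days and overlapped at 7 days through HC replicate 2 and control replicate 4 (E3 -1.44, E7 1.49).

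Prupe.4G054300, the last of the 6 most abundant members, had 87.4, 5.15, 61.4 and 52.0 FPKM in control and 18.8, 60.8, 0 and 21.4 FPKM in HC libraries at 3 days. At 7 days its libraries held 258, 537, 265 and 160.1 FPKM in control and 589, 376, 1316 and 843 FPKM in HC libraries. It overlapped at both days (E3 -1.45, E7 1.43), and both treatments had more of it at 7 than at 3 days.

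**Figure D3:**
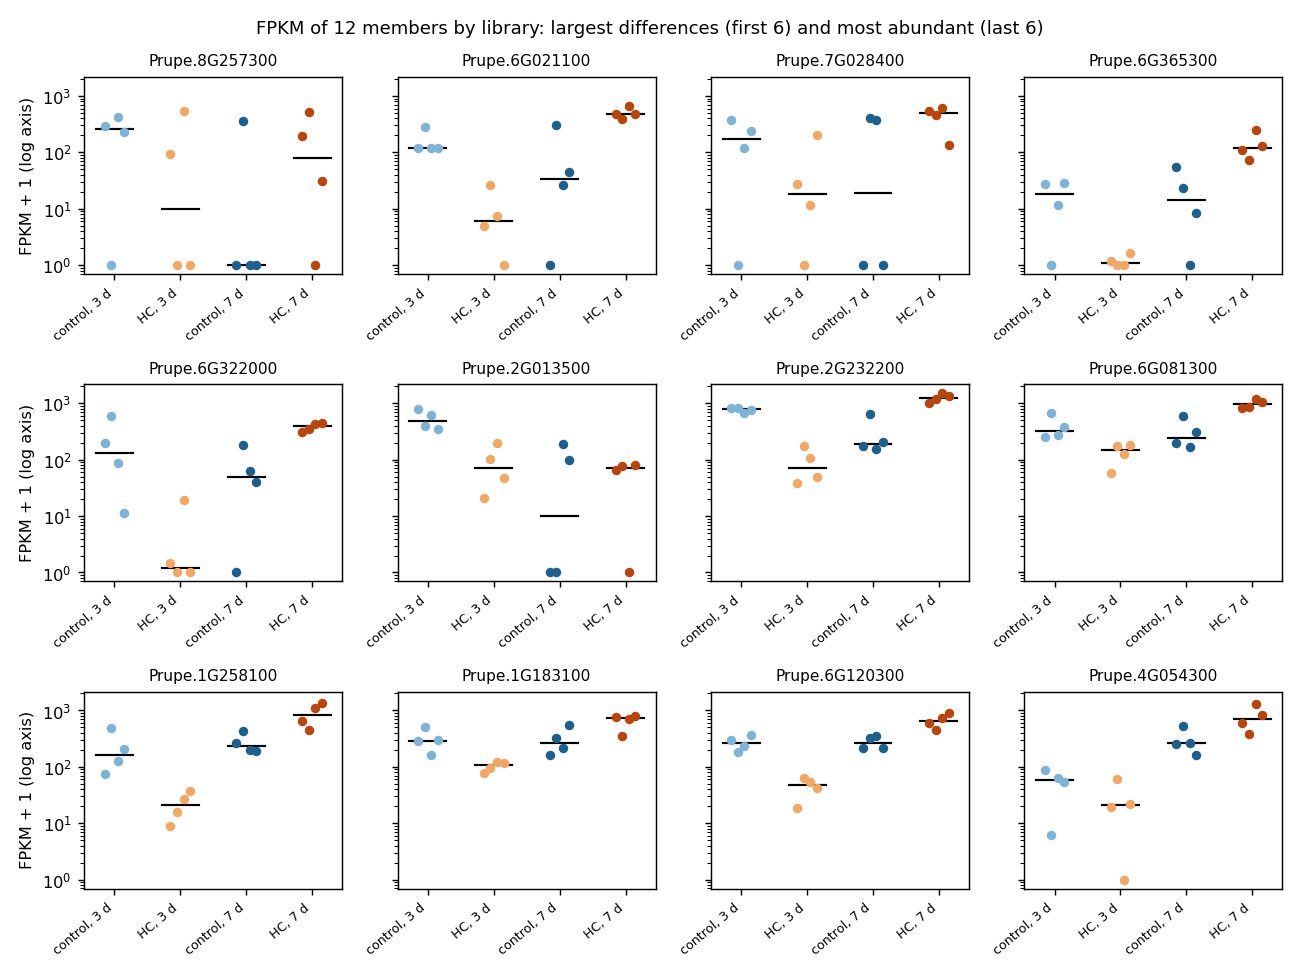
FPKM + 1 on a log axis in each library for 12 members, the 6 with the largest smaller value of -E3 and E7 (first 6 panels) and the 6 most abundant (last 6); points are libraries and lines the group medians of the log2 values. Prupe.2G232200 holds 678 to 809 FPKM in 3-day controls and 36.8 to 172 FPKM in 3-day HC libraries, while Prupe.8G257300 has libraries at 0 in every group.

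Ranked by the smaller of the 2 differences, the first 6 members differed in how far their libraries agreed. Prupe.6G021100, given above, was the second and the only one of the 6 whose groups were apart at both days. Prupe.8G257300 came first (E3 -4.74, E7 6.29) with 292, 0, 422 and 230.3 FPKM in control and 93.9, 0, 530.5 and 0 FPKM in HC libraries at 3 days. In 7-day buds it had 0, 360.5, 0 and 0 FPKM in control and 194, 518, 0 and 30.4 FPKM in HC libraries. Its groups overlapped at both days, 7 libraries listed it at 0, and its median was 4.96 estimated reads per library with 100.1 at most. Prupe.7G028400 (E3 -3.25, E7 4.68) had 382, 0, 121 and 241 FPKM in control and 26.5, 0, 10.9 and 203 FPKM in HC libraries at 3 days. Its 7-day levels were 0, 408, 369.8 and 0 FPKM in control and 537, 453, 602 and 137 FPKM in HC libraries. It too overlapped at both days and held 306 estimated reads at most.

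Prupe.6G322000 had the lowest E3 of all members (-6.76, E7 2.97). It had 194, 592, 87.2 and 10.1 FPKM in control and 0.47, 0, 18.6 and 0 FPKM in HC libraries at 3 days. At 7 days it had 0, 179, 61.0 and 38.9 FPKM in control and 314, 350.4, 431 and 454 FPKM in HC libraries. The groups were apart at 7 days and overlapped at 3 days only through control replicate 4 and HC replicate 3.

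Prupe.6G365300 (E3 -4.04, E7 3.06) had 26.3, 0, 10.9 and 27.2 FPKM in control and 0.20, 0, 0 and 0.63 FPKM in HC libraries at 3 days. Its 7-day levels were 53.1, 22.7, 0 and 7.58 FPKM in control and 109, 73.5, 244 and 127 FPKM in HC libraries. Only control replicate 2, listed at 0, kept its groups from being apart at 3 days. Prupe.2G013500 (E3 -2.81, E7 2.84) had 793, 393, 609 and 345 FPKM in control and 19.9, 101, 198 and 46.6 FPKM in HC libraries at 3 days. By 7 days the levels were 0, 0, 187 and 98.9 FPKM in control and 64.0, 77.3, 0 and 78.7 FPKM in HC libraries. Its 7-day groups overlapped fully, and its E7 rests on 2 controls at 0.

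Libraries at 0 were common among the members: 52 of 88 had at least 1, 14 had 4 or more, and 36 were above 0 in all 16. For 87 members reads could be estimated. Of these, 85 had a median of 10 or more estimated reads per library, and the exceptions were Prupe.8G257300 and Prupe.1G232200 (median 1.08, highest 14.4). The length-like factor of a gene had a median of 3.54 over these members and 5.65 over all genes with enough signal, so the same FPKM stood for fewer reads in a typical member. The SD of log2(FPKM + 1) within a group had a median over members of 0.90 in control and 0.96 in HC buds at 3 days, and of 1.54 in control and 0.68 in HC buds at 7 days. Over genes with enough signal it was 0.60, 0.39, 0.55 and 0.43 in the same order. Members were thus more variable between replicates than abundant genes in all 4 groups, and most of all in 7-day controls. The choice of members by differences between medians of 4 libraries may bear on this spread, which was not tested. Without control replicate 1 at 7 days the 7-day control SD was 1.12 over members (0.43 over genes with enough signal), and without control replicate 2 at 3 days the 3-day control SD was 0.48 (0.34), and the members stayed the more variable ones.

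The members reached this pattern by different courses in time. Taking a difference of 1 or more in group medians, 42 members were lower at 7 than at 3 days in control buds and higher at 7 days in HC buds. In 28 members the controls of both days lay within 1 of each other and HC buds were higher at 7 days. In 11 the controls were lower at 7 days and HC buds stayed within 1. Both treatments were higher at 7 days in 4 members and lower in 3. Without control replicate 1 at 7 days these 5 counts were 33, 34, 10, 7 and 3, and 1 further member lay within 1 in both treatments. Without control replicate 2 at 3 days they were 41, 26, 11, 7 and 3. The rule fixes a higher value of HC change than control change, so no test is given for these courses.

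Across the 42 members of the first course the typical level (median over members of group median FPKM) was 54.7 in control and 14.5 in HC buds at 3 days. At 7 days it was 14.96 in control and 62.2 in HC buds. The 28 members of the second course had 39.7 and 33.7 FPKM in controls of 3 and 7 days and 11.2 and 108.0 FPKM in HC buds. HC buds at 7 days were within 1 (log2) of control buds at 3 days in 42 members, and control buds at 7 days within 1 of HC buds at 3 days in 34. Both held in 25. Without control replicate 1 at 7 days these numbers were 42, 33 and 27, and without control replicate 2 at 3 days 43, 34 and 24. HC at 7 days lay above control at 3 days in 60 of 88 members, with a median difference of 0.67 (quartiles -0.26 and 1.57). For comparison, 74.3% of all genes with enough signal had HC at 7 days within 1 of control at 3 days.

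**Figure D4:**
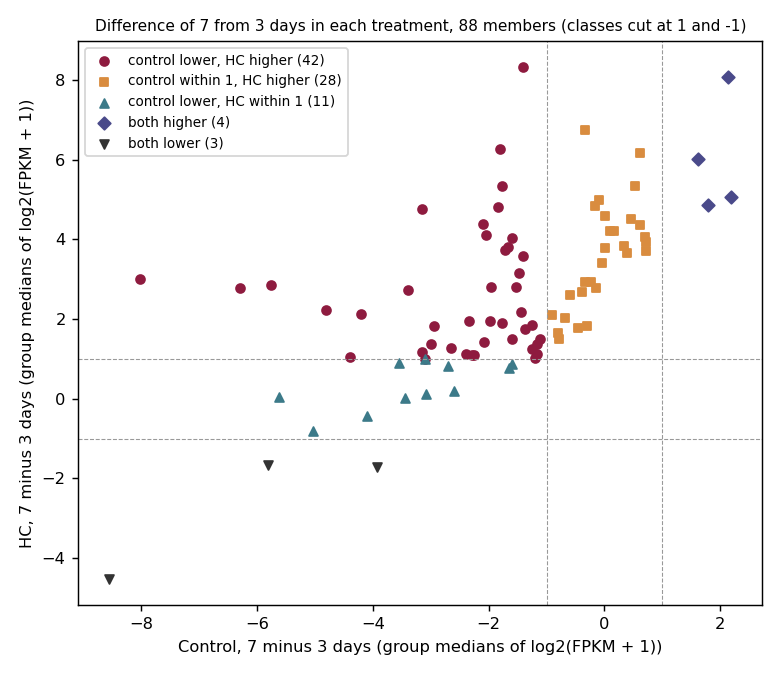
Difference of 7 from 3 days in control (horizontal) and HC buds (vertical), in group medians of log2(FPKM + 1), for the 88 members; colours and shapes mark 5 classes cut at 1 and -1. Most points have a negative control value and a positive HC value, 4 lie above 1 on both axes and 3 below -1 on both.

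**Figure D5:**
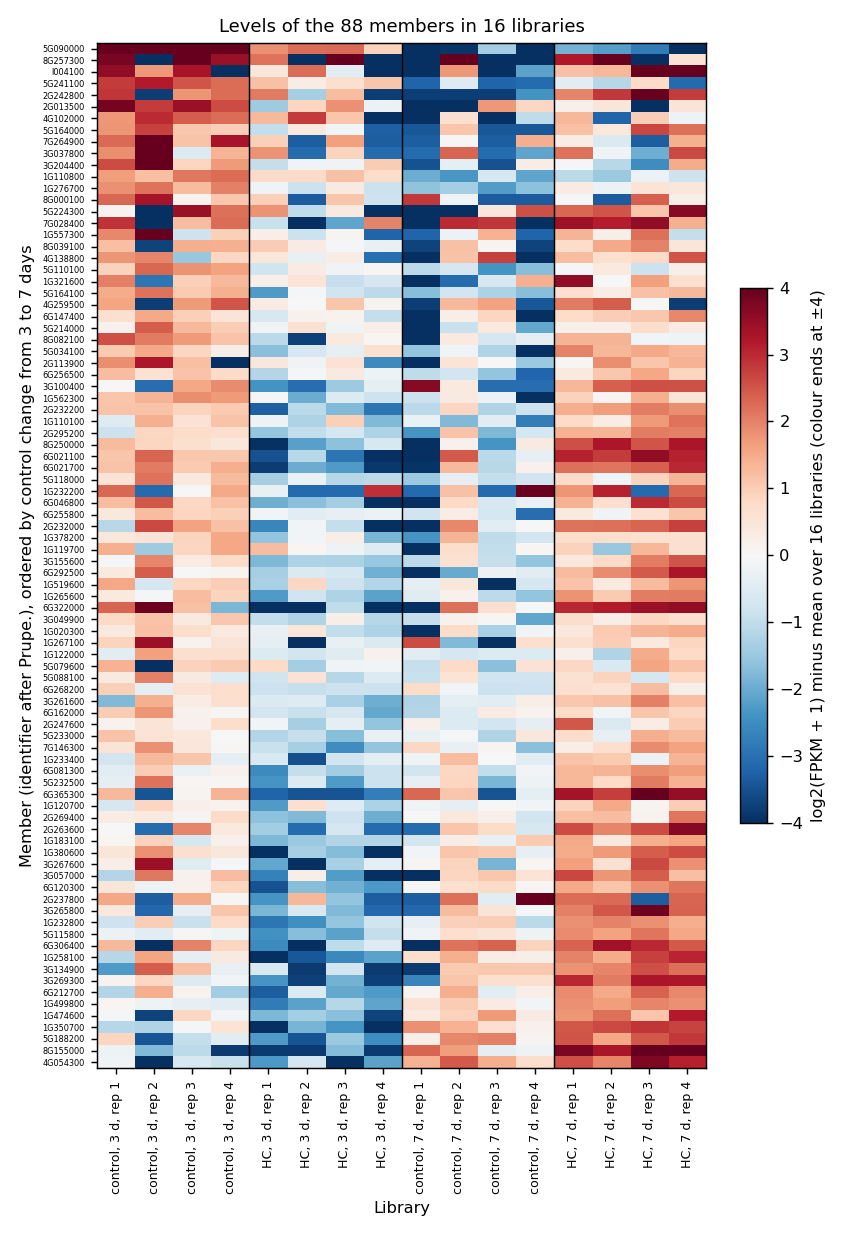
Log2(FPKM + 1) of each member (rows) in each library (columns) as a difference from its mean over 16 libraries; red is higher and blue lower, and rows are ordered by the control difference of 7 from 3 days. The HC block of 3 days is mostly blue and that of 7 days mostly red, with control replicate 1 of 7 days at 0 for 37 members.

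The change from 3 to 7 days averaged over both treatments was tested, because in a balanced design it does not depend on HC minus control at either day. Of the 88 members, 21 were higher (23.9%) and 6 lower (6.82%) at 7 days under limma with Benjamini-Hochberg adjustment over 16596 genes. The background was 6.65% higher and 6.57% lower over all tested genes, and 12.9% and 14.6% over genes with a mean of 20 FPKM or more. The median log2 fold change was 0.48 over members and 0.03 over all tested genes, with 50 members above 0 and 38 below. Control spread exceeded HC spread at 7 days, as given above, so the contrast is not fully free of the choice of members. The level limit of the rule bears on it too. Without the group in which a member was highest, 24 of the 88 had a mean under 20 FPKM, 15 of them with HC buds at 7 days as that group and 8 with control buds at 3 days. Among these 24 were 8 of the 21 members called higher and 2 of the 6 called lower, which met the limit through a group on the high side of the difference tested. The whole higher day bore on the limit in further called members. In Prupe.1G350700, Prupe.1G499800, Prupe.5G090000 and Prupe.1G110800 the groups of the lower day averaged under 20 FPKM. The counts are therefore a description. No p is given below for members that met the limit only through a group or day on the high side. Estimated depth moved with day too, with group medians of 7.25 M (control) and 11.0 M (HC) reads at 3 days and 2.82 M and 3.47 M at 7 days, and its part in these counts was not tested.

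The 6 members of lowest adjusted p among those called higher are given first. Prupe.8G155000 had the lowest, with a log2 fold change of 5.01 ± 0.57 (SE, limma), and it met the level limit only through HC buds at 7 days (mean 13.3 FPKM over the other groups). It had 11.4, 3.14, 5.90 and 0 FPKM in control and 0, 0, 3.25 and 0 FPKM in HC libraries at 3 days. The 7-day values were 70.8, 43.9, 10.1 and 11.2 FPKM in control and 193, 136, 400.2 and 380.0 FPKM in HC libraries. Its days overlapped only in control buds, through replicate 1 at 3 days and replicates 3 and 4 at 7 days.

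Prupe.1G350700 had the next lowest adjusted p, with a log2 fold change of 3.69 ± 0.44. It met the level limit only through the groups of 7 days, with 3-day means of 16.1 (control) and 1.9 FPKM (HC). Its 3-day libraries held 8.38, 8.0, 18.8 and 29.2 FPKM in control and 0, 4.64, 3.02 and 0 FPKM in HC buds. At 7 days its libraries held 71.9, 52.4, 31.6 and 22.2 FPKM in control and 114, 127, 148 and 131 FPKM in HC libraries. All 4 HC libraries of 7 days lay above every other library.

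Prupe.6G120300 (2.03 ± 0.24, limma adjusted p = 1.13e-05) and Prupe.1G258100 (2.97 ± 0.37, adjusted p = 1.93e-05), whose levels are given above, were also called higher. Prupe.1G499800 had a log2 fold change of 2.27 ± 0.28 and met the level limit only through the groups of 7 days. Its 3-day group means of 28.0 (control) and 7.8 FPKM (HC) averaged under 20 FPKM. Its 3-day levels were 34.7, 28.4, 25.6 and 23.3 FPKM in control and 3.78, 6.64, 14.2 and 6.79 FPKM in HC libraries. In 7-day buds it had 48.7, 67.5, 41.1 and 29.9 FPKM in control and 118, 106, 129.7 and 118 FPKM in HC libraries. The HC libraries lay below all controls at 3 days and above all of them at 7 days.

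Prupe.5G115800 (2.01 ± 0.25, adjusted p = 1.85e-05) had 38.8, 32.7, 46.8 and 40.3 FPKM in control and 7.74, 13.2, 9.45 and 23.2 FPKM in HC libraries at 3 days. The 7-day values were 41.1, 73.5, 65.9 and 39.5 FPKM in control and 169.8, 139.6, 204 and 136 FPKM in HC libraries. Control levels of the 2 days met at about 40 FPKM, while the HC groups of the 2 days were far apart. Prupe.4G054300, whose levels are given above, was also called higher, with the second highest log2 fold change of the 21 (4.35 ± 0.74, adjusted p = 0.00102). Of the 21 members called higher, 13 also had a higher median in control buds at 7 than at 3 days.

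Prupe.5G090000 was lowest among the 6 members called lower at 7 days (-6.26 ± 0.46). It met the level limit only through the groups of 3 days, with 7-day means of 1.68 (control) and 2.33 FPKM (HC). It had 411, 520.1, 446 and 351 FPKM in control and 68.5, 90.2, 92.6 and 36.0 FPKM in HC libraries at 3 days. Its 7-day levels were 0, 0.32, 6.39 and 0 FPKM in control and 4.26, 3.25, 1.80 and 0 FPKM in HC libraries. The 3-day groups were widely apart and the 7-day groups overlapped near 0, so its E7 of 1.59 rests on levels of a few FPKM.

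Prupe.1G110800 had a log2 fold change of -2.66 ± 0.31 and met the level limit only through the groups of 3 days. Its 7-day means were 8.91 (control) and 15.7 FPKM (HC). It had 94.2, 66.9, 127 and 139 FPKM in control and 49.2, 49.98, 65.7 and 48.8 FPKM in HC libraries at 3 days. By 7 days the levels were 6.5, 4.98, 18.2 and 5.96 FPKM in control and 13.1, 9.68, 24.6 and 15.6 FPKM in HC libraries. All libraries of 7 days lay below all libraries of 3 days in this gene.

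Prupe.5G241100 had a log2 fold change of -3.48 ± 0.55 and met the level limit only through control buds at 3 days (mean 7.56 FPKM over the other groups). It had 62.9, 80.8, 51.9 and 42.0 FPKM in control and 19.6, 10.3, 13.3 and 18.6 FPKM in HC libraries at 3 days. The 7-day values were 0, 5.38, 0 and 0.08 FPKM in control and 5.66, 3.18, 14.5 and 0.06 FPKM in HC libraries. The treatments overlapped at 7 days, and HC replicate 3 of that day lay within the range of the 3-day HC libraries.

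Prupe.1G276700 (-1.43 ± 0.23, adjusted p = 0.000341) had 269, 343, 183 and 307 FPKM in control and 66.8, 41.1, 97.4 and 41.1 FPKM in HC libraries at 3 days. At 7 days its libraries held 23.8, 28.8, 15.2 and 23.8 FPKM in control and 95.02, 64.6, 112 and 103 FPKM in HC libraries. Its HC levels of the 2 days overlapped, and its control levels differed by more than their spread.

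Prupe.5G110100 (-1.53 ± 0.31, adjusted p = 0.00268) had 71.7, 187, 133 and 117 FPKM in control and 21.3, 47.1, 33.7 and 40.01 FPKM in HC libraries at 3 days. Its libraries of 7 days had 17.5, 23.0, 6.29 and 10.9 FPKM in control and 36.2, 49.4, 20.3 and 44.2 FPKM in HC buds. As in Prupe.1G276700, the HC levels of both days overlapped while the control levels did not.

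Prupe.3G204400 had a log2 fold change of -2.30 ± 0.70 and also met the level limit only through control buds at 3 days (mean 9.2 FPKM over the other groups). It had 67.9, 214.7, 19.2 and 35.6 FPKM in control and 4.79, 9.18, 9.21 and 21.5 FPKM in HC libraries at 3 days. Its libraries of 7 days had 0, 7.51, 0 and 12.9 FPKM in control and 9.97, 4.23, 0.99 and 30.2 FPKM in HC buds. The treatments overlapped at both days. This call was lost in 14 of 27 alternatives. Among these were the fits without control replicates 1 or 2 or HC replicates 2, 3 or 4 of 3 days, and without control replicates 1 or 3 or HC replicates 2 or 3 of 7 days.

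By the chromosome part of the identifier, 23 members carried 1G, 10 carried 2G, 11 carried 3G, 4 carried 4G, 15 carried 5G, 15 carried 6G, 3 carried 7G and 6 carried 8G, and 1 carried I. As a share of the genes with enough signal, members made up 2.61% of the 575 genes of 5G, 1.84% of the 814 of 6G and 0.52% of the 577 of 7G, against 1.54% over all. These shares are a description with no test. Within 5 places in the identifier order there were 3 pairs of members, and no gene with enough signal lay between the partners of any pair.

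Prupe.5G164000 and Prupe.5G164100 are next to each other. Prupe.5G164100 had 331, 537, 249 and 323 FPKM in control and 23.8, 115, 68.2 and 57.5 FPKM in HC libraries at 3 days. In 7-day buds it had 36.0, 69.9, 48.4 and 36.1 FPKM in control and 189, 147, 268 and 294 FPKM in HC libraries. Its groups were apart at both days (E3 -2.37, E7 2.40), and its 7-day controls lay within the range of its 3-day HC libraries.

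Prupe.5G164000 had lower levels. It had 34.8, 68.3, 21.1 and 19.6 FPKM in control and 4.26, 12.8, 8.75 and 0.10 FPKM in HC libraries at 3 days. In 7-day buds it had 0, 21.5, 0 and 0 FPKM in control and 22.7, 13.1, 66.0 and 47.0 FPKM in HC libraries. Control replicate 2 alone overlapped the HC libraries at 7 days (E3 -1.97, E7 5.08).

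Prupe.2G232000 lies 2 places before Prupe.2G232200. It had 24.0, 341, 164 and 121 FPKM in control and 7.89, 49.6, 26.9 and 0 FPKM in HC libraries at 3 days. Its 7-day levels were 0, 203, 38.6 and 53.9 FPKM in control and 242, 246, 271 and 358 FPKM in HC libraries. It was apart at 7 days and overlapped at 3 days through control replicate 1 (E3 -3.17, E7 2.47).

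Prupe.5G232500 and Prupe.5G233000 lie 5 places apart. Prupe.5G232500 had 41.0, 243, 56.2 and 54.8 FPKM in control and 9.38, 35.9, 10.2 and 28.4 FPKM in HC libraries at 3 days. By 7 days the levels were 41.6, 96.1, 14.01 and 45.9 FPKM in control and 136, 92.6, 228 and 140.5 FPKM in HC libraries. Prupe.5G233000 had milder differences (E3 -1.53, E7 1.18), with control levels between 37.01 and 81.8 FPKM and HC levels between 10.7 and 29.5 FPKM at 3 days. Both genes were apart at 3 days and overlapped at 7 days. Reads shared between neighbouring copies, if these pairs are such copies, would make each level less certain, and this was not tested.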

How the data were processed

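Buds of HC-treated and control trees were profiled by mRNA sequencing (Illumina TruSeq mRNA libraries, per the labels' protocols). Trimmomatic, STAR 2.5.2a and RSEM 1.2.31 are named, without role, per the submitters' processing notes. The deposited matrix holds values taken as FPKM, since they are not whole and sum to unequal totals; its genome build is not given in the sources used here. A table for each day, deposited by the authors, has per the file headers a log2 fold change with its adjusted p-value, and a signal value for either treatment; how these were made is likewise not given.

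Members and lists were chosen with earlier results of these data known. limma 3.58.1 (R 4.3.3, statmod 1.5.0) was fitted to log2(FPKM + 1) of genes that reached 1 FPKM in 4 or more libraries, with 1 mean per group over 16 libraries and eBayes with trend and robust settings, and tested on simulated data. Calls used a Benjamini-Hochberg adjusted p under 0.05. p-values rest on the spread between libraries within groups. The fit holds no term for tree, although each tree would have given buds on both days. Depth was estimated because FPKM carries none: dividing the deposited signal by FPKM gave 18510 genes a length-like factor, and FPKM times that factor fell on steps taken as 1 read. Between 73.0% and 92.6% of low values per library lay within 0.2 of a whole number of steps. limma's voom was applied to these estimated reads, scaled by library totals, as 1 alternative. An FPKM of 0 states only that a gene was listed at 0.

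Named members were the 6 with the largest smaller value of -E3 and E7, the 6 most abundant, up to 6 per direction in the day test, members within 5 places of another, and those nearest the limits; further names are marked. The reference table's 26412 genes matched 0 of 26873 identifiers, so lists by product name were not used and no sequence is shown. Same-numbered libraries of the 2 days had correlations of deviations between -0.04 and 0.08 over 8 pairs, so numbers were not taken to pair samples. Alternatives were other pseudocounts, scalings, filters, limits and blocks, quality weights and leaving out libraries; voom on estimated reads, and the separation, course and spread values without the 2 libraries of fewest genes above 0 or 1 of them, were chosen after seeing the data.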

Additional observations from a re-analysis of the deposited data

Results flagged for a closer look

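In 132 groups of 4 libraries examined, 15 had a library far from the other 3. The limit used gives about 1 in 20 for independent normal values. These groups share libraries and some hold several values at 0, so no excess is read from the count. In 7-day control buds, control replicate 2 was far above the others for Prupe.8G257300 (360.46 FPKM), Prupe.5G164000 (21.52 FPKM), Prupe.5G088100 (29.54 FPKM) and Prupe.5G241100 (5.38 FPKM). In the same group control replicate 3 was high for Prupe.5G090000 (6.39 FPKM) and control replicate 1 was listed at 0 for Prupe.3G134900. In 3-day control buds, control replicate 2 was listed at 0 for Prupe.8G257300, was high for Prupe.6G021100 (279.34 FPKM) and held the highest share of summed FPKM in the members (1.02%). In 3-day HC buds, replicate 3 was high for Prupe.6G322000 (18.55 FPKM), Prupe.8G155000 (3.25 FPKM) and Prupe.1G110800 (65.73 FPKM), and replicate 4 was low for Prupe.6G162000 (7.02 FPKM). In 7-day HC buds, replicate 3 was listed at 0 for Prupe.2G013500 and replicate 2 was low for Prupe.1G183100 (353.11 FPKM).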

How the results depend on the processing

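The number of members was 161 with a mean of 10 FPKM or more, 40 with 50 or more and 43 with a limit of 1.5, all by the construction of the rule. It was between 72 (median-of-ratios scaling) and 119 (limit of 0.8) under the other settings that kept all libraries, and 88 without the 2 libraries of fewest genes above 0, of which 58 were among the original 88. Leaving out 1 library gave between 84 and 106 members, with 68 (without control replicate 1 at 7 days) to 83 of the original 88 among them, and 37 were members in all 16 such settings. The 19 members with separate libraries at both days were 18 after median-of-ratios scaling and 25 without those 2 libraries. In the day test the members called higher numbered 18 to 31 and those called lower 5 to 7 over 27 alternatives, and all genes called numbered 2193, or 3304 with quality weights, whose cause was not tested. With replicate number as a block 22 members were called higher and 6 lower, and a block for each treatment and number together gave 20 and 6. Of 17 named members called, 16 were called in every alternative. No named member reversed. The day-test alternatives all used the same 88 members, so they cannot separate these calls from the level limit of the rule. Estimated depth was lowest in 7-day controls, which limits their values.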

Other observations

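Some members outside the named ones had E7 above 4, and they are given here after their values were seen. Prupe.2G242800 had the highest E7 (6.57), with 0, 0, 0 and 1.57 FPKM in control and 51.7, 94.95, 374 and 93.3 FPKM in HC libraries at 7 days, and at most 65.7 estimated reads in any library. Prupe.I004100 had 0, 138, 0 and 8.38 FPKM in control and 92.7, 104, 889.5 and 786 FPKM in HC libraries at 7 days (E7 6.55). Its groups overlapped at both days, 4 libraries listed it at 0, and its reads could not be estimated. Prupe.5G224300 had 0, 0, 39.4 and 175 FPKM in control and 145, 167, 63.5 and 370.5 FPKM in HC libraries at 7 days (E7 4.63), with overlap and at most 126 estimated reads.

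Prupe.8G250000, whose groups were apart at both days, had 56.5, 42.5, 36.3 and 32.0 FPKM in control and 0.55, 4.30, 6.71 and 14.5 FPKM in HC libraries at 3 days. At 7 days it had 0, 26.2, 3.66 and 29.8 FPKM in control and 142, 225, 136 and 231 FPKM in HC libraries. Prupe.3G269300 had 13.8, 22.7, 7.99 and 11.2 FPKM in control and 1.58, 0, 2.61 and 0 FPKM in HC libraries at 3 days, and 1.13, 27.7, 19.6 and 19.6 FPKM in control and 107, 55.1, 128 and 125 FPKM in HC libraries at 7 days.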
